A study of Drosophila melanogaster with 8 samples.

Results

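Glycolysis splits glucose into pyruvate through a chain of cytoplasmic enzymes. This account follows 10 Drosophila genes for those enzymes, Hex-A, Pgi, Pfk, Ald, Tpi, Gapdh1, Gapdh2, Pgk, Eno and PyK. They were picked by name from a table of 17321 genes, with earlier results of these data known, and each of the 10 matched one row. The study compared whole embryos of the laboratory wild-type strain OrgR (Oregon R) with embryos mutant for esc (extra sex combs), a subunit of the Polycomb complex that methylates histone H3 at lysine 27. The mutants lacked esc function both from the mother and from their own genome, and the labels give no allele. Each of the 8 libraries, 4 per genotype, came from a pool of at least 200 embryos of stages 14 and 15. The titles number the libraries 1-1, 1-2, 2-1 and 2-2 within a genotype, and libraries with the same genotype and first number are called a set here. The labels do not say whether the libraries of a set are repeats from the same pool.

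In the preparatory steps of the pathway, hexokinase (Hex-A), phosphoglucose isomerase (Pgi), phosphofructokinase (Pfk), aldolase (Ald) and triosephosphate isomerase (Tpi) turn a sugar into triose phosphates. In the later steps, glyceraldehyde-3-phosphate dehydrogenase (Gapdh1 and Gapdh2), phosphoglycerate kinase (Pgk), enolase (Eno) and pyruvate kinase (PyK) yield ATP and pyruvate. In Drosophila the nuclear receptor ERR raises transcription of many of these genes in mid-embryogenesis, ahead of larval growth, and developing body wall muscle is a site of strong expression.

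Of these 10 genes, 7 rose in esc, none fell and 3 did not pass the test. The 7 were Pfk, Ald, Tpi, Gapdh1, Gapdh2, Pgk and PyK, with levels 1.51-fold to 2.78-fold higher. Hex-A, Pgi and Eno did not pass. Called rises made up 20.9% of the 10547 genes tested and called falls 31.6%. The median log2 change was 0.67 over the 10 members and -0.18 over all tested genes. At an unadjusted p under 0.05, 1 member, Pgi, was lower in esc. All 10 passed the filter on low values. A change was called where the adjusted p of limma's moderated test was under 0.05, on log2(RPKM + 1) of set means, and RPKM is a read number scaled to gene length and to the reads of the library. These calls rest on 2 sets per genotype. With esc set 2 left out, none of the 10 passed in limma (5 were up at an unadjusted p under 0.05), while 15.4% of all tested genes still rose. With esc set 1 left out 3 members rose (17.6% of all tested genes), and with OrgR set 2 left out 3 rose (12.3%) and Pgi fell (7.29%). Each of these fits takes the spread of the lone set from the genotype that kept both. The share of all tested genes at an unadjusted p under 0.05 is not given here. Member counts at that threshold therefore cannot be set against the shares above, which use the adjusted p.

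Some facts of the libraries bear on these values. The esc transcript ranged from 10.7 to 12.4 RPKM over the OrgR libraries and from 3.56 to 4.40 RPKM over the mutant libraries. Relative sequencing depth lay between 84.4% and 100% of the deepest library. The median absolute log2 difference over 7032 genes was 0.03 to 0.06 within a set, 0.12 to 0.17 between sets of a genotype and 0.40 to 0.50 between genotypes. The labels do not state whether the sets are independent embryo collections, and the p-values reflect only how far these sets lie apart, and that distance could be technical. A bulk RNA level cannot tell fewer cells of a type from less RNA per cell.

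**Figure D1:**
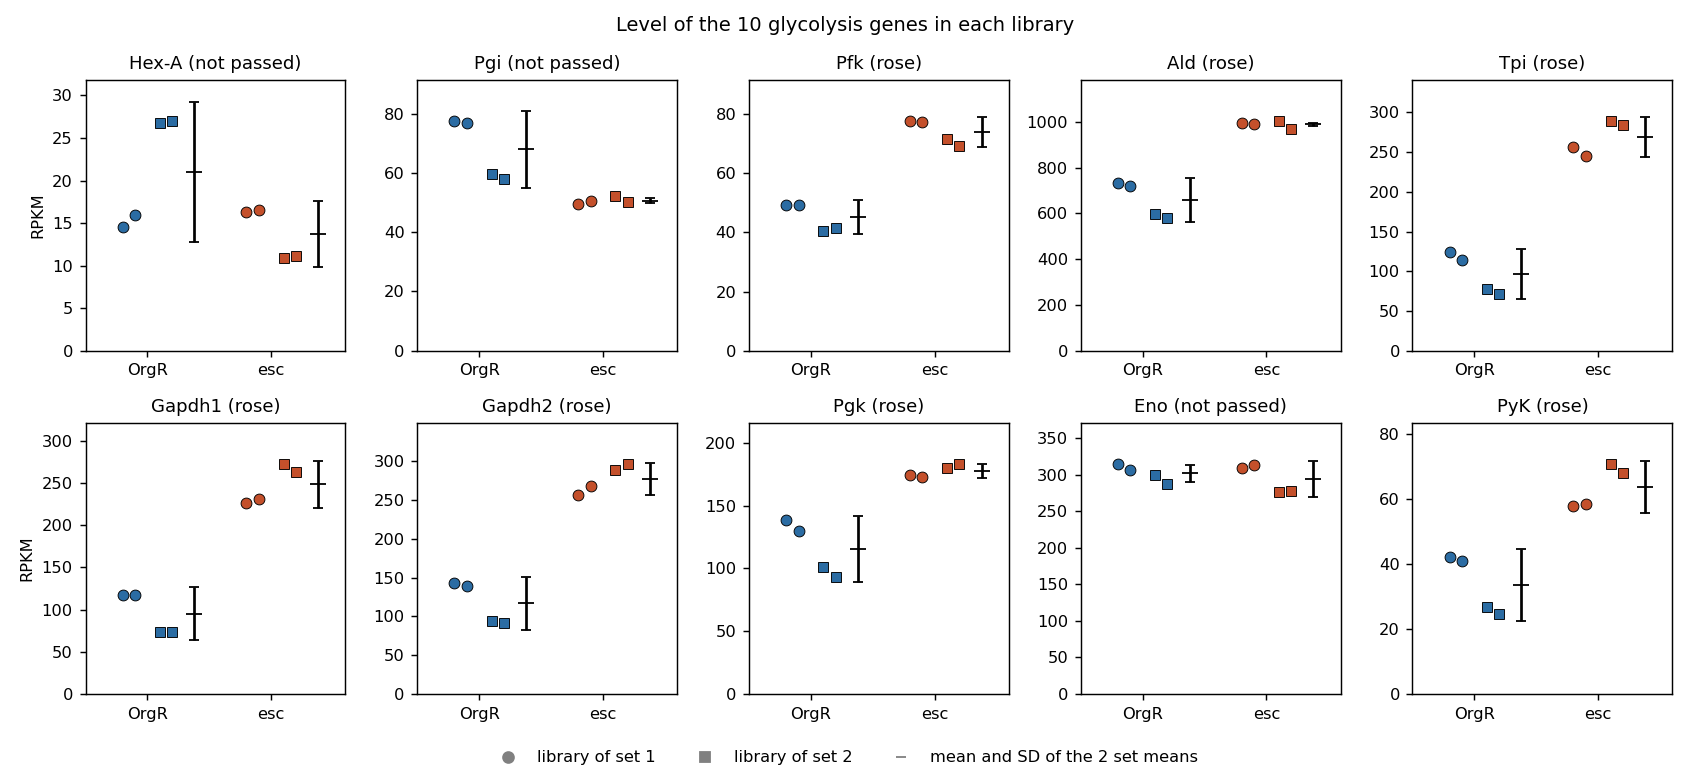
RPKM (y axis, from 0, a separate scale for each gene) of the 10 glycolysis genes in each library, by genotype. Circles are libraries of set 1, squares those of set 2, and the black bar is the mean ± SD of the 2 set means; the esc libraries lie above all OrgR libraries in 7 panels, and below them for Pgi, while for Hex-A and Eno the ranges overlap, with esc set 1 within the OrgR range and esc set 2 below it.

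The first enzymes of the pathway were not higher in esc. Hex-A, which phosphorylates glucose (X chromosome, 9585675 to 9589813, plus strand in dm6), read, in the library order 1-1, 1-2, 2-1 and 2-2 used throughout, 14.6, 15.9, 26.7 and 27.0 RPKM in OrgR and 16.3, 16.6, 10.9 and 11.2 RPKM in those of esc. The genotypes overlapped, because OrgR set 1 and esc set 1 lay at the same level while the second sets stood far apart in opposite directions. The mean was 21.1 ± 8.2 RPKM in OrgR and 13.7 ± 3.8 RPKM in esc (SD over n = 2 sets per genotype). The log2 change of -0.55 ± 0.33 (SE of the fit) did not pass (limma adjusted p = 0.209).

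Pgi interconverts glucose and fructose phosphates and lies on chromosome arm 2R (8910900 to 8914069, minus strand). Its levels were 77.5, 77.0, 59.6 and 58.0 RPKM in the OrgR libraries and 49.5, 50.5, 52.3 and 50.2 RPKM in the esc libraries, in the same order. Every esc library was below every OrgR library, as in 45.3% of tested genes, and the esc libraries were much closer to each other than the OrgR sets were. The means were 68.0 ± 13 and 50.6 ± 0.89 RPKM, and the log2 change of -0.41 ± 0.15 did not pass (limma adjusted p = 0.0804). Measured from the median tested gene, the change was -0.22.

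Pfk commits the sugar to glycolysis, and its level was higher in esc (2R, 10109740 to 10117457, plus strand). It was 49.3, 49.2, 40.5 and 41.6 RPKM in the OrgR libraries and 77.7, 77.5, 71.8 and 69.2 RPKM in the esc libraries. The lowest esc library stood well above the highest OrgR library, an arrangement found for 26.2% of tested genes. The mean went from 45.1 ± 5.8 to 74.0 ± 5.0 RPKM, 1.64-fold (log2 change 0.71 ± 0.13, limma adjusted p = 0.0137). In OrgR the Pgi level was above that of Pfk, at 1.39 to 1.57 times, and in esc it was below it, at 0.637 to 0.729 times; this ratio was chosen after its values were seen.

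Ald splits fructose bisphosphate into triose phosphates and was the most abundant of the 10 per length in each library. It read 731, 717, 597 and 580 RPKM in the OrgR libraries and 995, 990, 1003 and 967 RPKM in the esc libraries. The esc sets were nearly equal and above both OrgR sets. The mean went from 656 ± 96 to 989 ± 5.2 RPKM, 1.51-fold (log2 change 0.60 ± 0.13, limma adjusted p = 0.0196). The gene, named Ald1 in the annotation, lies on 3R from 26254069 to 26261591 on the minus strand, and 8.87% of its exonic bases are shared with an antisense RNA gene. With unstranded reads those bases cannot be assigned to a strand.

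Tpi interconverts the triose phosphates and had the highest fold change of the 10. It read 125, 114, 77.3 and 71.2 RPKM in the OrgR libraries and 257, 245, 289 and 285 RPKM in the esc libraries. Every esc library was far above both libraries of OrgR set 1, and OrgR set 2 was lower still. The mean went from 96.7 ± 32 to 269 ± 25 RPKM, 2.78-fold (log2 change 1.50 ± 0.25, limma adjusted p = 0.0115), which ranked 895 among the changes of the 10547 tested genes ordered from the highest rise. The gene spans 30132981 to 30134599 on the minus strand of 3R. The level of Ald was 5.87 to 8.15 times that of Tpi in OrgR and 3.40 to 4.03 times in esc, a ratio also chosen after its values were seen.

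Both genes for glyceraldehyde-3-phosphate dehydrogenase, the enzyme that reduces NAD+ in the pathway, were higher in esc. Gapdh1 (2R, 7791901 to 7793380, minus strand) read 117, 118, 73.1 and 73.1 RPKM in the OrgR libraries and 226, 231, 272 and 263 RPKM in the esc libraries. Gapdh2, on the X chromosome (15868145 to 15869661, plus strand), read 143, 139, 93.6 and 90.9 RPKM in OrgR and 257, 268, 289 and 296 RPKM in esc. For both genes OrgR set 2 was the lowest set and esc set 2 the highest. Gapdh1 rose 2.61-fold, from 95.2 ± 31 to 248 ± 28 RPKM (log2 change 1.41 ± 0.25, limma adjusted p = 0.0134). Gapdh2 rose 2.38-fold, from 117 ± 35 to 277 ± 21 RPKM (log2 change 1.27 ± 0.22, limma adjusted p = 0.0131). The genes are close paralogs, so the division of reads between them is uncertain. Gapdh1 was below Gapdh2 in every library, at 0.781 to 0.845 times its level in OrgR and 0.862 to 0.943 times in esc. The log2 change of Gapdh1 exceeded that of Gapdh2 by 0.14, and over the 4 set means the two-sided exact permutation p was 0.333, the smallest that this design can give.

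Pgk, which makes the first ATP of the pathway, was also higher in esc (2L, 2746880 to 2753068, minus strand). It read 139, 130, 101 and 93.0 RPKM in the OrgR libraries and 174, 173, 180 and 183 RPKM in the esc libraries. No esc library fell as low as an OrgR library. The mean went from 116 ± 26 to 178 ± 5.6 RPKM, 1.54-fold (log2 change 0.63 ± 0.17, limma adjusted p = 0.0365). Of its exonic bases, 3.08% are shared with Cwc25 on the other strand.

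Eno makes phosphoenolpyruvate and was the second most abundant member in OrgR. It read 315, 307, 300 and 288 RPKM in the OrgR libraries and 310, 314, 277 and 278 RPKM in the esc libraries. The genotypes overlapped, and in each genotype set 1 was slightly above set 2. The means were 302 ± 12 and 295 ± 24 RPKM, and the log2 change was -0.04 ± 0.10 (limma adjusted p = 0.754). Its sign depends on the scaling, as it was 0.19 after median-of-ratios scaling, and a change that misses the threshold does not show an equal level. The gene lies on 2L from 1724768 to 1729636 on the minus strand, and 9.74% of its exonic bases are shared with Rrp40.

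PyK, which makes pyruvate and ATP in the last step, was higher in esc (3R, 22367536 to 22372746, plus strand). It read 42.1, 40.9, 26.8 and 24.7 RPKM in the OrgR libraries and 57.8, 58.4, 70.8 and 68.2 RPKM in the esc libraries. The step between the OrgR sets was of similar size to the step from OrgR set 1 to esc set 1. The mean went from 33.6 ± 11 to 63.8 ± 8.0 RPKM, 1.90-fold (log2 change 0.94 ± 0.25, limma adjusted p = 0.035).

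Without a filter on low values 5 of the 10 rose, against 19.2% of the 13482 genes then tested, and Pgk (limma adjusted p = 0.0512) and PyK (adjusted p = 0.052) did not pass. Median-of-ratios scaling, which moved the median of all tested genes from -0.18 to 0.02, left the count of rises at 7, against 24.9% of all tested genes.

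**Figure D2:**
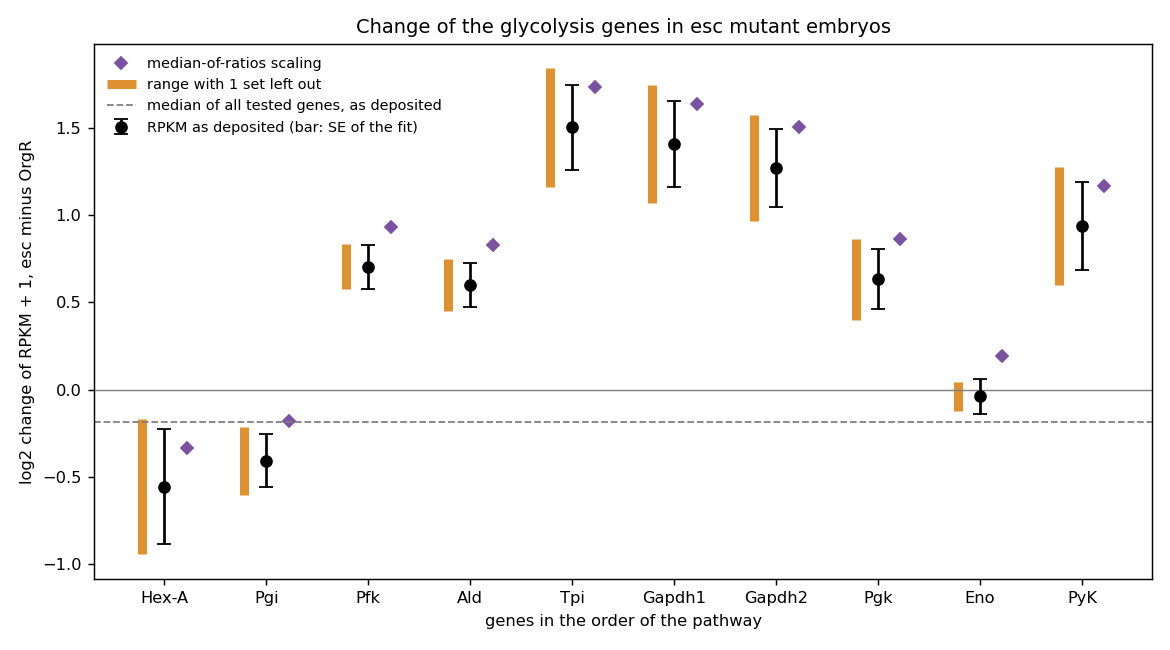
Log2 change of RPKM + 1 (y axis, esc minus OrgR) of the 10 genes in pathway order. Black points with SE bars are the values as deposited, diamonds those after median-of-ratios scaling, orange bars the range with 1 set left out, and the dashed line the median of all tested genes, -0.18; Tpi, Gapdh1 and Gapdh2 stand highest, at 1.27 to 1.50.

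The OrgR sets also differed from each other in these 10 genes. In OrgR, 9 of the 10 members were higher in both libraries of set 1 than in both of set 2, as were 39.6% of all tested genes, and Hex-A was lower. The log2 difference between the OrgR sets was 0.68 for Tpi, 0.67 for Gapdh1 and PyK, 0.61 for Gapdh2, 0.46 for Pgk, 0.39 for Pgi, 0.30 for Ald, 0.26 for Pfk, 0.08 for Eno and -0.78 for Hex-A. In esc, both libraries of set 1 were above both of set 2 for 3 members, Hex-A (difference 0.54), Eno (0.17) and Pfk (0.14), against 35.4% of all tested genes. For Ald the esc sets overlapped (difference 0.01). PyK had the widest difference the other way, -0.25 on the log2 scale.

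Added up, the 10 genes had higher RPKM in esc, also as a part of all RPKM. Their summed level was 1753, 1708, 1396 and 1348 RPKM across the OrgR libraries in the order above, and 2421, 2424, 2515 and 2471 RPKM across those of esc. The esc libraries were all higher, and they varied less than the OrgR libraries. The mean sum was 1551 ± 254 RPKM in OrgR and 2458 ± 50 RPKM in esc (SD over n = 2 sets), a ratio of 1.58, and 1.64 without Ald. As a part of all RPKM of a library the sum was 0.123% to 0.151% in OrgR and 0.201% to 0.209% in esc.

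The make-up of this sum differed between the genotypes, given here as a description without a test. Ald took 41.7% to 43.0% of it in OrgR and 39.1% to 41.1% in esc. Eno went from 17.9% to 21.5% in OrgR to between 11.0% and 12.9% in esc, and Pgi from between 4.27% and 4.51% to between 2.03% and 2.08%. Tpi (5.28% to 7.11% in OrgR, 10.1% to 11.5% in esc), Gapdh1 (5.23% to 6.89% and 9.35% to 10.8%) and Gapdh2 (6.70% to 8.18% and 10.6% to 12.0%) took larger shares in every esc library. The shares of Pfk, Pgk and PyK overlapped between genotypes. By mean level the order in OrgR was Ald, Eno, Gapdh2, Pgk, Tpi, Gapdh1, Pgi, Pfk, PyK and Hex-A. The 4 genes from Gapdh2 to Gapdh1, at 95.2 to 117 RPKM, lay within their SDs of each other. These SDs include the step between the OrgR sets, which the 4 genes share. Gapdh1 was below Gapdh2 in every OrgR library, while Gapdh2 and Pgk changed order between the sets. In esc the order was Ald, Eno, Gapdh2, Tpi, Gapdh1, Pgk, Pfk, PyK, Pgi and Hex-A. There the 4 genes from Eno to Gapdh1 had means of 248 to 295 RPKM, and neighbours in that stretch differed by less than their SDs.

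**Figure D3:**
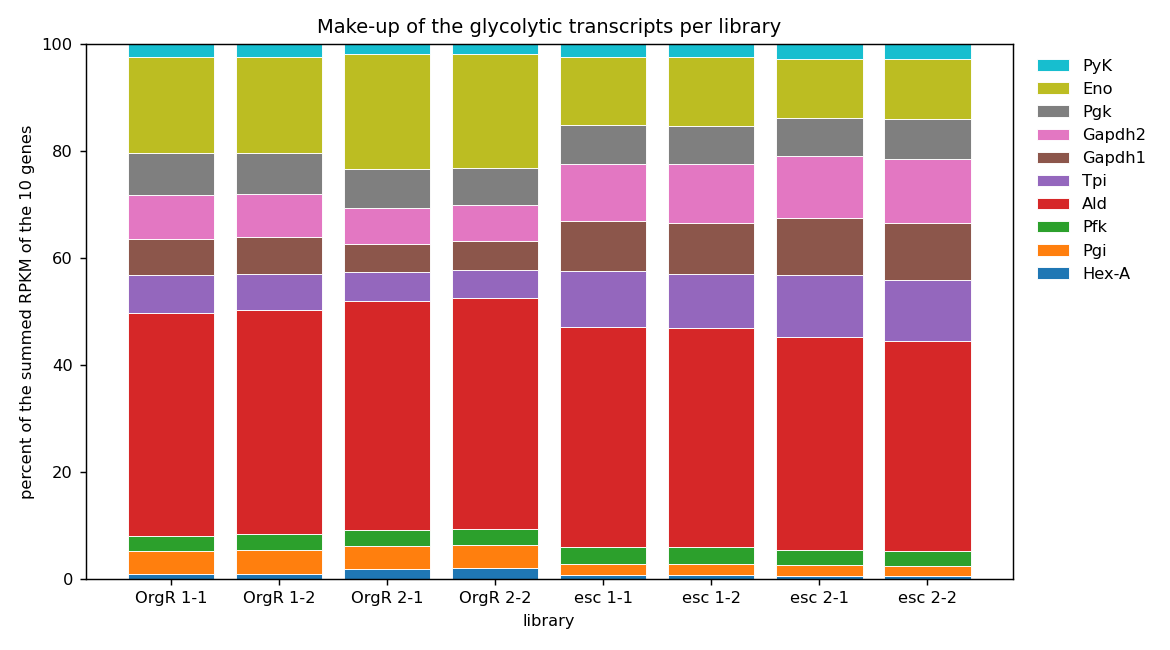
Percent of the summed RPKM of the 10 glycolysis genes (y axis) taken by each gene in each library (x axis). In the esc libraries the bands of Tpi, Gapdh1 and Gapdh2 are wider and those of Eno and Pgi narrower than in each OrgR library.

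The remaining step of the pathway, the phosphoglycerate mutase between Pgk and Eno, is encoded by Pglym78, which is not among the 10. Its level was 195, 193, 155 and 151 RPKM in the OrgR libraries and 243, 243, 259 and 258 RPKM in the esc libraries. It rose 1.45-fold (log2 change 0.54 ± 0.14, limma adjusted p = 0.032), so that each step from Pfk to the mutase had a gene that rose, while Eno, the next step, did not pass. Of 13 listed further genes for isoenzymes of these steps, Pglym78 included, 6 were high enough to be tested. Of these, 3 rose, against 20.9% of all tested genes, and 1 fell, against 31.6%. Hex-C, a hexokinase gene, went from 0.335 to 1.75 RPKM (log2 change 0.99 ± 0.29, limma adjusted p = 0.0458), and CG9961, a phosphoglycerate kinase paralog, fell from 3.60 to 0.869 RPKM (log2 change -1.30 ± 0.11, limma adjusted p = 0.00305). The third rise, named here because the count is small, was CG7059 (0.813 to 1.62 RPKM). These 3 genes lie far below the members in level. Hex-C did not pass after median-of-ratios scaling (adjusted p = 0.0513) and passed in 13 of 22 other settings.

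The branches that leave or feed the pathway were mostly not called. Of 3 genes for lactate and glycerol phosphate metabolism none passed in limma, and 1, Gpo-1, had an unadjusted p under 0.05. ImpL3, for lactate dehydrogenase, was 645 ± 162 RPKM in OrgR and 731 ± 47 RPKM in esc (log2 change 0.20 ± 0.19, limma adjusted p = 0.407). The glycerophosphate oxidase gene Gpo-1 was 14.5 ± 2.1 and 25.6 ± 8.5 RPKM (log2 change 0.74, adjusted p = 0.0658), and it passed after median-of-ratios scaling (adjusted p = 0.048). Of 10 genes for trehalose and glycogen, the storage sugars of insects, 2 rose, 2 fell and 6 did not pass. The rises, at 20.0%, were near the 20.9% of all tested genes, and the falls were below the 31.6%. The 2 rises and 2 falls of this list are named next. Those that rose were the glycogen breakdown genes CG9485 (debranching enzyme, 9.71 to 16.3 RPKM, log2 change 0.70) and GlyP (glycogen phosphorylase, 127 to 170 RPKM, 0.43, adjusted p = 0.0459). Those that fell were the trehalose transporter genes Tret1-1 (70.9 to 42.3 RPKM, -0.73) and Tret1-2 (2.96 to 1.68 RPKM, -0.57; adjusted p = 0.0823 after median-of-ratios scaling).

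Of 5 gluconeogenesis genes, 2 rose, against 20.9% of all tested genes, 1 fell, against 31.6%, and 2 did not pass. Pepck, a phosphoenolpyruvate carboxykinase gene, rose from 182 to 292 RPKM (log2 change 0.67) and PCB, for pyruvate carboxylase, from 26.6 to 40.4 RPKM (0.59), while CG10924, a second carboxykinase gene, fell from 114 to 72.8 RPKM (-0.64). In the pentose phosphate pathway, which branches off glucose phosphate, 1 of 7 genes rose and 1 fell, 14.3% each and below those shares. Pgd, for phosphogluconate dehydrogenase, rose from 32.7 to 48.4 RPKM (log2 change 0.55), and CG8036, a transketolase gene, fell from 447 ± 7.3 to 253 ± 0.38 RPKM (-0.82, limma adjusted p = 0.00377).

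Downstream of pyruvate, 3 of 21 genes listed for the pyruvate dehydrogenase complex and the citric acid cycle rose, 1 fell and 17 did not pass. Rises made up 14.3% and falls 4.76%, below the 20.9% and 31.6% of all tested genes. The list takes in Mdh1 and Idh beside the mitochondrial enzymes, while its entries for Pdha, Idh3a and Fum1 were not matched. The median log2 change of the 21 was 0.08. Mdh2, for mitochondrial malate dehydrogenase, rose from 112 ± 13 to 265 ± 9.4 RPKM (log2 change 1.24 ± 0.11, limma adjusted p = 0.00354), and Nc73EF, for a subunit of oxoglutarate dehydrogenase, from 53.0 to 79.3 RPKM (0.57). The third was CG5028, for an isocitrate dehydrogenase subunit, outside the naming rule and chosen after its values were seen (95.5 to 116 RPKM, 0.28). Pdp, for the phosphatase that activates pyruvate dehydrogenase, was the one called lower (58.3 to 46.8 RPKM, -0.31, adjusted p = 0.0498), a call kept in 7 of 23 other settings and not after median-of-ratios scaling (adjusted p = 0.546).

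Most listed regulators of the pathway did not pass. Of 10, 1 rose, against 20.9% of all tested genes, 1 fell, against 31.6%, and 8 did not pass. ERR was 39.0 ± 2.4 RPKM in OrgR and 33.5 ± 0.90 RPKM in esc (log2 change -0.21 ± 0.09, limma adjusted p = 0.119). Pfrx, whose product makes the activator of phosphofructokinase, was 16.8 ± 1.1 and 17.8 ± 0.53 RPKM (log2 change 0.09, adjusted p = 0.51). The sugar-sensing factor gene Mondo rose from 62.1 to 89.7 RPKM (log2 change 0.52), and tgo, for the partner of the hypoxia factor Sima, fell from 90.5 to 59.2 RPKM (-0.61, adjusted p = 0.0289; adjusted p = 0.104 after median-of-ratios scaling). RNA levels of a regulator say nothing of its activity.

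Most markers of muscle were higher in esc, as were 7 of the 10 glycolysis genes. Of 15 muscle markers, 13 rose, against 20.9% of all tested genes, and 2 did not pass. Of these 2, the gene up had a log2 change of 0.77 with overlapping libraries. Mef2 went the other way (138 to 116 RPKM, log2 change -0.25), with every esc library below every OrgR library. The median log2 change of the 15 markers was 1.51. Their summed level was 6854 to 9219 RPKM in OrgR libraries and 22120 to 24040 RPKM in esc libraries. The LIM protein gene Mlp60A rose most (282 to 2303 RPKM, log2 change 3.04 ± 0.23), followed by the paramyosin gene Prm (63.2 to 336 RPKM, 2.45 ± 0.29). In OrgR, both libraries of set 1 were above both of set 2 for 14 of the 15 muscle markers and 9 of the 10 glycolysis genes. The share over all tested genes was 39.6%. This order of the OrgR sets was not particular to these 2 lists. It held for 15 of 21 genes in the pyruvate dehydrogenase and citric acid cycle list. In the pentose phosphate pathway it held for 6 of 7, in gluconeogenesis for 4 of 5 and in the lactate list for 3 of 3. It held for 5 of 12 late cuticle markers, 2 of 10 fat body and hemocyte markers and 1 of 10 neuron markers. No muscle marker was at the floor of the table in every library. Their part in the rise of the glycolysis genes was not tested.

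Most late cuticle markers also separated the genotypes, with 9 of 11 tested rising, against 20.9% of all tested genes. The other 2, Lcp1 (0.854 to 0.638 RPKM) and Lcp3 (0.684 to 0.366 RPKM), were lower in esc without passing. The summed level of the late cuticle markers was 12.6 to 16.9 RPKM in OrgR and 4486 to 8826 RPKM in esc. It was led by Cpr65Ea (1.54 to 1815 RPKM) and TwdlM (2.08 to 1752 RPKM). A difference in age between the pools and an effect of the genotype cannot be told apart in this design. Of 9 tested neuron markers 1 rose, Gad1 (2.13 to 4.69 RPKM), against 20.9% of all tested genes. Outside the naming rule, fne was lower in every esc library (133 to 84.4 RPKM, limma adjusted p = 0.0513). The mean of elav was also lower, with overlapping libraries (30.2 to 16.9 RPKM). The remaining tested markers did not pass and had log2 changes of 0.03 (VGlut) to 0.49 (Syt1). The summed level of the neuron markers was 192 to 254 RPKM in OrgR and 136 to 203 RPKM in esc. Of 6 tested fat body and hemocyte markers 2 rose, against 20.9% of all tested genes, and 2 fell, against 31.6%. The rises were the collagen genes vkg (47.9 to 125 RPKM) and Col4a1 (83.6 to 188 RPKM). The falls were Lsp2 (3.03 to 0.918 RPKM, limma adjusted p = 0.059 after median-of-ratios scaling) and srp (58.7 to 35.2 RPKM). Outside the naming rule, Pxn (44.3 to 41.7 RPKM) and Sr-CI (5.38 to 3.33 RPKM) did not pass and had lower means in esc. The summed level was 214 to 272 RPKM in OrgR and 363 to 426 RPKM in esc. Among the tested markers of this list only the collagen genes had higher means in esc.

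**Figure D4:**
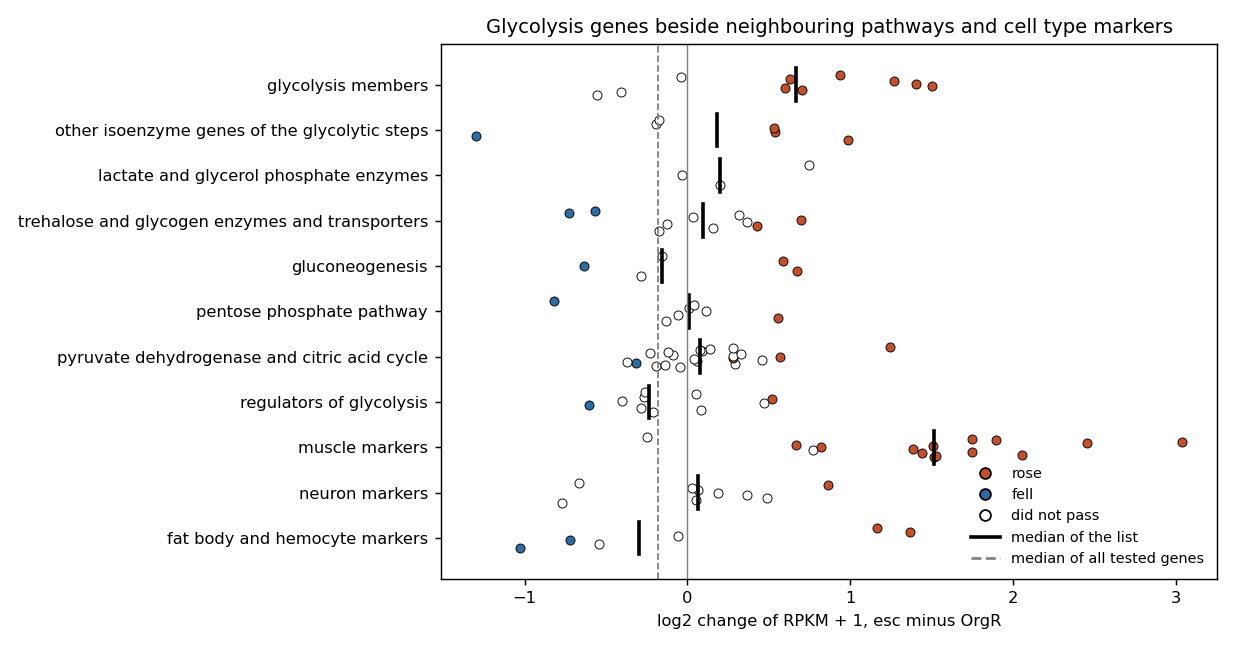
Log2 change of RPKM + 1 (x axis, esc minus OrgR) of each tested gene of the glycolysis list, 7 neighbouring pathway lists and 3 marker lists; late cuticle markers lie mostly outside this range and are not drawn. Black bars are list medians and the dashed line is the median of all tested genes. The glycolysis median is 0.67, that of muscle markers 1.51 and that of the pyruvate dehydrogenase and citric acid cycle list 0.08.

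The 5 genes outside the list whose level across the 8 libraries followed the mean of the members most closely were Osi5, CG31076, CG4456, St4 and CG10527, with Pearson correlations of 0.998 to 0.999 on log2(RPKM + 1). Osi5 belongs to the Osiris family of transmembrane proteins, and it went from 4.79 to 21.8 RPKM. St4, a sulfotransferase gene, went from 13.4 to 52.6 RPKM. All 5 were higher in OrgR set 1 than in OrgR set 2 and nearly equal between the esc sets, a pattern that picking them by this correlation favours. The points share libraries in 2 genotypes, and 1760 of 10537 compared genes had a correlation above 0.9, so closeness on this measure was common.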

How the data were processed

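The authors deposited one table of RPKM values (reads scaled to gene length and library size, linear and unfiltered per the labels) for 17321 genes in 8 libraries. Per the labels' protocols, libraries of total RNA were unstranded and read as pairs of 150 bp, and the submitters' processing notes name dm6. Aligner, counter and gene models are not given in the sources used here. RPKM are shares, so they fall where other genes take more reads. The lowest value, 0.001, filled 27.6% of cells and was taken as a floor. Read numbers are not given, and relative depth came from the ratio shared by genes of 0.06 to 1.5 RPKM.

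Libraries of a set were averaged on log2(RPKM + 1), and limma compared the 4 resulting means, 2 in each genotype, with version 3.58.1 (lmFit, eBayes with a variance trend, R 4.3.3). It tested the 10547 genes whose 8-library mean reached 0.5 RPKM, with Benjamini-Hochberg adjustment over all of them and a threshold of 0.05. This left 2 residual degrees of freedom, 4.55 after moderation. Level means are given ± SD of the set means. Fold changes on the log2(RPKM + 1) scale understate the change of low genes. On simulated data of 10547 genes for esc against OrgR, 200 genes with an OrgR log2 level above 2 were changed. The noise was normal, with each gene's spread averaged with the median spread. Of 50 genes raised by 1 on the log2 scale 45 were recovered, and of 50 raised by 0.5, 3. Of the unchanged genes 1 was called. In the real data 2208 genes rose and 3329 fell, so these figures do not give the power or error rate of the real test. SciPy 1.17.1 gave the exact permutation test.

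The members and lists were chosen with earlier results of these data known. Positions are from Ensembl release 115 (dm6 coordinates, 1-based). Of 130 list entries 126 matched, 2 through a RefSeq synonym. The named genes were the 10 members, Pglym78, ImpL3, ERR, Pfrx, the 5 closest profiles, and from each list up to 2 largest rises and 2 largest falls, or the 2 smallest p where none passed. Alternatives varied pseudocount, filter, scaling, variance trend, the handling of libraries, a replicate block, and left out each set and library.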

Additional observations from a re-analysis of the deposited data

How the results depend on the processing

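Of 230 values (10 members in 23 other settings), 202 kept their direction and their side of the threshold. The labels do not say whether same-numbered sets of the 2 genotypes were collected or prepared together. The deviations of same-numbered sets had a correlation of -0.34 over genes. With 2 sets per genotype this value cannot show whether they are paired. With the set number as a replicate block 4 members and 1568 of the 10547 tested genes rose, and Ald (0.60), Pgk (0.63) and PyK (0.94) kept their log2 changes without passing; without a filter on low values Pgk (0.63) and PyK (0.94) did not pass either. Pgi (-0.41) passed as a fall with 8 libraries and a correlation within sets and with 8 libraries as independent samples, so that 1 member fell in each. With crossed set numbers as a block, chosen after seeing the data, 7 members rose and 2 fell, as did 2519 and 4198 of all tested genes. Eno turned to 0.19 after median-of-ratios scaling and to 0.0051 after centring on the median gene.

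With 1 set or library left out, log2 changes ran from -0.94 (without OrgR set 1) to -0.16 (without OrgR set 2) for Hex-A, -0.60 to -0.21 for Pgi, 0.58 to 0.83 for Pfk, 0.45 to 0.75 for Ald, 1.16 to 1.84 for Tpi, 1.07 to 1.74 for Gapdh1, 0.97 to 1.58 for Gapdh2, 0.40 to 0.86 for Pgk, -0.12 to 0.046 for Eno and 0.60 to 1.27 for PyK. The count of rises then ran from 0 (without esc set 2) to 7, and of falls from 0 to 1. Without OrgR library 1-2 it was 6, as Pgk missed the threshold (adjusted p = 0.0507). The excess of Gapdh1 over Gapdh2 (0.14) gave an exact permutation p of 0.0286 with 8 libraries as independent samples, which they may not be. Over all tested genes, 2208 rose and 3329 fell; rises numbered 1337 with a filter at 5 RPKM, where fewer genes were tested, and 1302 to 2237 with a set or library left out. Falls numbered 1024 after median-of-ratios scaling, 899 with the block, 5050 with 8 libraries as independent samples and 736 to 3509 with a set or library left out. The cause of these differences was not tested. The ratio of summed levels, 0.67 on the log2 scale, was 0.59 as a part of all RPKM and 0.91 after median-of-ratios scaling. Across settings, rises numbered 12 to 14 of 15 among muscle markers, 8 to 10 among late cuticle markers and 2 to 5 among fat body and hemocyte markers. They numbered 1 to 7 of 21 in the pyruvate dehydrogenase and citric acid cycle list. The other lists had no rise in at least 1 setting, with ranges of 0 to 3 for isoenzymes, 0 to 5 for trehalose and glycogen, 0 to 2 for gluconeogenesis, regulators and neuron markers, and 0 to 1 for the pentose phosphate pathway and for lactate and glycerol phosphate.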
